A study of Gallus gallus with 21 samples.

Results

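The left ovary was compared with the heart of female chicken embryos after 18 days of incubation. The comparison used the 3 arrays of female gonads (embryos 2, 12 and 20) and the 4 arrays of female hearts (embryos 2, 10, 12 and 20), 7 of the 21 arrays of the series. The others held testis (4 arrays), male heart (3) and the brains of both sexes. They entered the same model, so each SE and adjusted p below rests on a spread shared by all groups with values. All embryos were White Leghorn fowl with no treatment named, each array held 1 tissue of 1 embryo, and a gonad array of embryo 10 was not analysed here. The heart sample was a piece of the apex and the gonad sample a whole left gonad, so each is a mixture of cell types. In such bulk samples, fewer cells of a type and less RNA per cell cannot be told apart. Gonad RNA was purified with an RNeasy Micro Kit with built-in DNase treatment, whereas heart and brain RNA went through a PureLink kit and a separate DNA-free step. The kit and the tissue therefore cannot be told apart in any ovary-heart difference below. Brain shared the kit of heart, and female brain levels are given beside some heart genes for that reason.

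The embryonic heart is a working pump, whose muscle cells are filled with sarcomeres, calcium stores and mitochondria. The left ovary of a late chick embryo has a cortex, where germ cells enter meiosis, and a medulla, whose cells make steroid hormones. The female bird normally keeps only the left ovary as a functional gonad. In birds, as in mammals, cholesterol is the starting material for these hormones, and aromatase turns androgens into oestrogens.

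Values are log2 expression levels, so a difference of 1 is a fold-change of 2. In each tissue, every probe set with values had a mean above 4.0 in at least 1 sex, and the other probe sets were blank there. The authors filtered on level and detection, but fewer probe sets carry values here than passed their filter, so a blank may also have another cause. Of 19874 probe sets, 13298 had values in both gonad and heart and were compared, 3201 had values in gonads and not in heart, 1984 in heart and not in gonads, and 1391 in neither. Because only 1 sex had to exceed it, 149 of the compared probe sets had an ovary mean under 4.0 and 69 a female heart mean under 4.0. The level of 4.0 was read from the lowest values of the table and is not stated in the sources used here. Genes with a mean under it are given by both levels, and how large their fold-change was stays unmeasured. Means are given ± SD over 3 ovary and 4 heart arrays, and each gene is described by the probe set with the highest mean over the 7 arrays.

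Ovary and heart were far apart. Ovary arrays correlated with each other at 0.975 to 0.977 and heart arrays at 0.970 to 0.979 across probe sets, whereas an ovary and a heart correlated at 0.767 to 0.809. The median SD over probe sets was 0.203 in ovaries and 0.219 in hearts. Over the 11710 probe sets with values in all 21 arrays, ovary arrays had medians of 8.18 to 8.23 and heart arrays medians of 8.03 to 8.08. The median difference over compared probe sets was 0.16 on the log2 scale in favour of ovary, and the differences below include that shift.

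At a fold-change over 2 and a adjusted p under 0.05 (limma, Benjamini-Hochberg), 2562 probe sets (19.3%) were higher in ovary and 1954 (14.7%) were higher in heart, together 34% of those compared. The arrays of the tissues did not overlap in 63.6% of probe sets. Counted once per gene, 1449 of 7349 genes (19.7%) were higher in ovary and 1085 (14.8%) in heart. These shares are the background for the counts of each gene and marker list below. Past a fold-change of 4 the split was even, with 762 probe sets higher in ovary and 764 in heart. Past 32-fold, 32 were higher in ovary and 80 in heart. These counts include means under 4.0, which were more often those of ovary (149 compared probe sets) than of heart (69). Genes blank in a tissue, such as CYP19A1 and MYH15, are left out. The split past 32-fold is therefore not one of measured sizes. With every array centred on its median over the probe sets with values in all arrays, 2151 probe sets were higher in ovary and 2277 in heart.

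**Figure D1:**
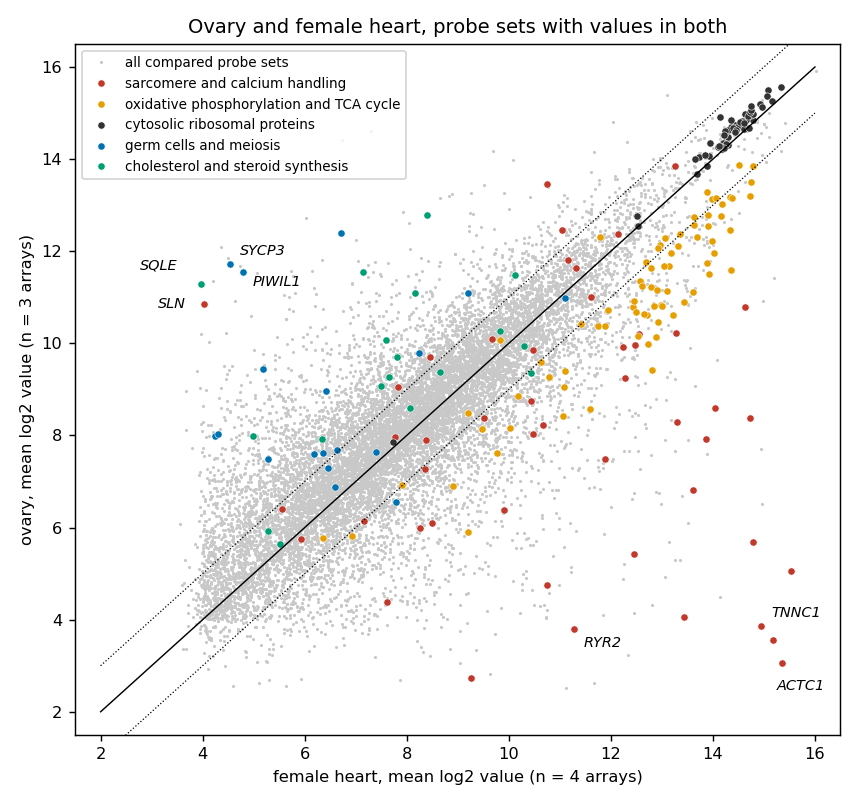
Mean log2 value in female heart (x axis, 4 arrays) against ovary (y axis, 3 arrays) for the compared probe sets, with members of several gene lists in colour. The solid line marks equal levels and the dotted lines a fold-change of 2. Ribosomal protein genes lie close to the line, sarcomere genes such as ACTC1 (3.07 in ovary, 15.35 in heart) far to its lower right, and SQLE, SYCP3 and SLN to its upper left.

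Heart muscle genes gave the widest differences of the comparison. Of 28 sarcomere and scaffold genes with values in both tissues, 20 were higher in heart, 2 were higher in ovary and 6 did not pass the test, with a median difference of -4.12. ACTC1, the cardiac actin of the thin filament, had ovary values of 2.64, 3.17 and 3.39 (embryos 2, 12 and 20, the order used throughout). Its heart values (embryos 2, 10, 12 and 20) were 15.35, 15.27, 15.38 and 15.42. Every heart thus lay far above every ovary, and the ovaries lay under 4.0 (adjusted p = 1.47e-10). MYL3, an essential myosin light chain, had values of 4.59, 3.61 and 2.48 in the ovaries and 15.10 to 15.22 in the hearts. TNNC1, the calcium-binding subunit of cardiac troponin, stood at 3.87 ± 0.70 in ovary and 14.95 ± 0.09 in heart. None of these 3 genes had an ovary mean above the filter level.

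Other sarcomere genes had ovary means above 4.0. Because either sex could meet that level, such a mean does not by itself show detection in ovary. MYL2, the regulatory light chain of the ventricle, stood at 5.07 ± 0.29 in ovary and 15.54 ± 0.05 in heart. ACTN2, the α-actinin of the Z-disc, stood at 5.69 ± 0.43 and 14.79 ± 0.05, a 547-fold difference with an SE of 0.31 on the log2 scale. MYOM2, a protein of the M-band, stood at 13.44 ± 0.23 in heart. Its ovary mean was only 4.05, and its ovaries ran from 2.78 in embryo 20 to 4.81 in embryo 12. Its difference was -9.39, and -8.76 without the ovary of embryo 20. ACTA1, the skeletal muscle actin that young hearts also make, was well above 4.0 in ovary (8.38 ± 0.31) and yet far below heart (14.73 ± 0.05). FHL2, a LIM protein, was well above the filter in both tissues, at 10.79 ± 0.39 and 14.64 ± 0.02. The tropomyosins were the exceptions on this list. TPM2 stood at 13.45 ± 0.26 in ovary and 10.74 ± 0.11 in heart, 6.55-fold higher in ovary (adjusted p = 4.96e-11), and TPM1 was 2.68-fold higher in ovary (adjusted p = 2.98e-09). Both genes also serve the actin of smooth muscle and other cells.

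A further 14 sarcomere genes had values in heart and none in gonads, among them the ones that define heart muscle. Over all probe sets, 1984 of 19874 had heart values and none in gonads. MYH15, the ventricular myosin heavy chain of the chicken, had values of 15.83, 15.93, 15.89 and 15.94 in the 4 hearts. TNNT2, cardiac troponin T, ran from 15.08 to 15.25, MYBPC3, cardiac myosin-binding protein C, from 15.11 to 15.40, and TTN, the giant spring titin, from 14.84 to 15.01. MB, the oxygen-storing myoglobin of another list, ran from 15.18 to 15.33. These 5 genes were blank in every gonad and in brain, and no fold-change was computed for them.

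**Figure D2:**
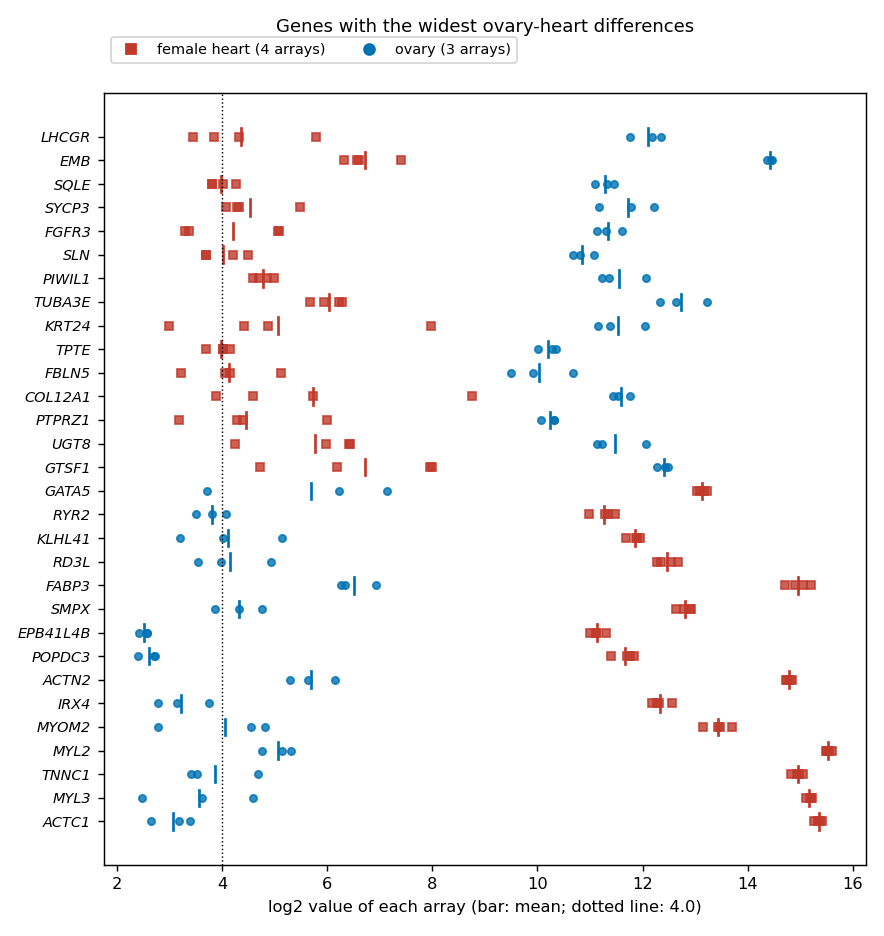
Log2 value of each array (x axis) for the 15 genes with the widest called difference in either direction, with squares for the 4 female hearts, circles for the 3 ovaries, bars for the means and a dotted line at 4.0. Only genes whose tissues do not overlap were eligible. Ovary values of several muscle genes lie at or below 4.0, and the hearts spread most for KRT24, COL12A1 and GTSF1.

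Calcium handling followed the sarcomere in part. Of 20 genes compared, 11 were higher in heart and 3 higher in ovary, with a median difference of -1.41. RYR2, the channel that releases calcium from the sarcoplasmic reticulum, had values of 3.81, 4.08 and 3.51 in the ovaries and 10.98 to 11.48 in the hearts. ATP2A2, the pump that returns the calcium, stood at 7.92 ± 0.24 in ovary and 13.87 ± 0.16 in heart, 61.7-fold higher in heart (adjusted p = 2.41e-15). CACNA1C, the L-type calcium channel, was 9.32-fold higher in heart and ANK2, an ankyrin that anchors ion transporters, 8.10-fold. Female brain had 6.28 for RYR2, 12.37 for ATP2A2, 4.62 for CACNA1C and 14.03 for ANK2. The calcium-binding CASQ2 (11.81 ± 0.15), TRDN (12.44 ± 0.14) and the exchanger SLC8A1 (9.03 ± 0.27) had heart values and were blank in gonads.

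SLN went the other way. Sarcolipin, a small inhibitor of the calcium pump known from muscle, had values of 10.69, 11.07 and 10.81 in the ovaries and 3.70, 4.21, 4.49 and 3.70 in the hearts. All ovaries lay above all hearts, by 6.83 on the log2 scale with an SE of 0.61 (adjusted p = 5.76e-07). Its testis mean was 4.83 and its male heart mean 5.29, so the ovary was the high one of the 4 gonad and heart groups. ATP2B1, a calcium pump of the plasma membrane (2.33-fold), and STIM1, a sensor of calcium stores (2.37-fold), were the other members higher in ovary.

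Of 8 ion channel and gap junction genes compared, 5 were higher in heart and 1 higher in ovary. POPDC3, a cAMP-binding membrane protein of muscle, stood at 2.62 ± 0.18 in ovary and 11.67 ± 0.19 in heart. ABCC8, a subunit of ATP-sensitive potassium channels, was 14.3-fold higher in heart, KCNQ1, a repolarising potassium channel, 2.62-fold, and BVES, another Popeye-domain protein, 2.39-fold. BVES fell just under the fold-change without the heart of embryo 2 and in a second probe set (-0.87). The connexins split. GJA1, connexin 43, stood at 13.21 ± 0.23 in ovary and 8.83 ± 0.08 in heart, 20.8-fold higher in ovary (adjusted p = 1.38e-13), whereas GJA5, connexin 40, stood at 11.03 ± 0.22 in heart and was blank in gonads.

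Transcription factors of the heart were mostly higher in heart. Of 15 factors and hormone genes compared, 12 were higher in heart and 1, FOXP1, was higher in ovary, with a median difference of -3.04. IRX4, a homeobox factor of the ventricle, had ovary values of 3.14, 3.74 and 2.78 and heart values of 12.18 to 12.56. GATA5 ran from 13.03 to 13.22 in the hearts, and its ovaries were spread widely, at 6.22, 7.13 and 3.72. Its difference was -7.44, and -6.45 without the ovary of embryo 20 and -8.16 without that of embryo 12. MYOCD, the co-activator that turns on muscle genes with SRF, was 24.1-fold higher in heart. HAND2 stood at 9.31 ± 0.23 in heart, with ovaries at 5.68, 5.68 and 3.65, a difference of -4.31 that came to -3.63 without the ovary of embryo 20. FOXP1 was 2.08-fold higher in ovary (adjusted p = 0.00132) and no longer passed the fold-change once arrays were centred (0.91) or without the heart of embryo 2 (0.94). NKX2-5, the homeobox factor of early heart fields (11.06 ± 0.23), TBX5 (8.28 ± 0.38) and NPPA, the atrial natriuretic peptide (15.02 ± 0.08), were blank in gonads. MYH7 and NPPB were not matched by symbol to a probe set and were not analysed here.

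Most genes of energy metabolism were higher in heart. Of 30 genes of fatty acid uptake and oxidation, 21 were higher in heart and 1 higher in ovary (median -2.04). Of 21 genes of the tricarboxylic acid cycle and pyruvate dehydrogenase, 17 were higher in heart and 0 in ovary (median -1.70). Of 54 genes of oxidative phosphorylation, 42 were higher in heart and 0 in ovary (median -1.36), and all 54 differences were below 0, each with an unadjusted p under 0.05. The background share of genes higher in heart was 14.8%, against 70.0%, 81.0% and 77.8% of these lists.

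FABP3, the fatty acid carrier of heart muscle, had values of 6.92, 6.34 and 6.26 in the ovaries and 15.21, 14.71, 14.91 and 15.05 in the hearts. The difference was 353-fold (adjusted p = 8.72e-13). FABP5 was 69.3-fold higher in heart, PDK4, the kinase that shuts pyruvate dehydrogenase, 28.5-fold, and PPARGC1A, a co-activator of mitochondrial genes, 26.0-fold. Female brain had 11.56 for FABP3, 11.67 for FABP5, 8.46 for PDK4 and 8.93 for PPARGC1A. The uptake receptor CD36 stood at 9.06 ± 0.60 in ovary and 13.64 ± 0.05 in heart. FABP7, a carrier abundant in brain and glia, was the exception. It had ovary values of 10.03, 9.53 and 8.0 and heart values of 5.72 to 6.26, 9.29-fold higher in ovary. The ovary of embryo 20 was its lowest, and the difference was 3.81 without it against 3.22 with it.

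In the cycle itself, IDH2 stood at 9.42 ± 0.28 in ovary and 12.81 ± 0.16 in heart, 10.5-fold higher in heart. IDH3B was 8.11-fold, GOT1 6.68-fold and DLST 6.31-fold higher in heart. Female brain, extracted with the kit of heart, had 9.43 for IDH2, 10.03 for IDH3B, 11.99 for GOT1 and 9.47 for DLST. These brain means lay below the heart means, and for IDH2 the brain level was close to that of ovary. Over the 21 genes of this list with a brain value, the median level was 10.37 in ovary, 10.97 in female brain and 12.57 in heart. Among the genes higher in heart that had a brain value, brain was above ovary in 16 of 17 genes of this cycle, 39 of 41 of oxidative phosphorylation, 8 of 16 of fatty acid use and 7 of 8 of glycolysis, and at or above heart in 1, 2, 0 and 3 of them. For calcium handling, brain was above ovary in 10 of 10 such genes and at or above heart in 3. These genes were taken because heart lay above ovary, which by itself favours a brain level above ovary. The share over all genes higher in heart was not computed, so these counts do not bear on the kit. HK1 stood at 10.02 in ovary, 11.89 in heart and 11.95 in brain, and ANK2 at 9.26, 12.27 and 14.03. The part of the kit in these differences cannot be told apart from that of the tissue.

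In the respiratory chain, NDUFS7 of complex I stood at 10.13 ± 0.09 in ovary, 12.89 ± 0.06 in heart and 11.07 in female brain. NDUFV2 was 6.07-fold higher in heart, and the ATP synthase subunit listed as ATP5G1 6.74-fold. NDUFS3 was scattered within both tissues. Its ovaries had values of 5.16, 7.56 and 4.96 and its hearts values of 7.76, 10.51, 10.60 and 7.97, so that embryo 12 was high in both tissues and embryos 2 and 20 were low in both. Its difference of -3.31 had an SE of 1.02 (adjusted p = 0.00883), and it was -4.15 without the ovary of embryo 12. Over the 52 members with a brain value, the median level was 11.42 in ovary, 12.20 in female brain and 13.05 in heart. COX4I1 (13.85 ± 0.05 in ovary, 14.79 ± 0.11 in heart) and the cytosolic MDH1 (13.88 ± 0.19 and 14.50 ± 0.10) fell short of a fold-change of 2.

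Of 18 genes of glycolysis, phosphocreatine and oxygen storage, 10 were higher in heart and 0 in ovary (median -1.05). PFKM, the muscle form of phosphofructokinase, stood at 6.52 ± 0.53 in ovary and 12.98 ± 0.07 in heart, an 88.1-fold difference. AK1, which balances adenine nucleotides, was 5.75-fold and HK1 3.65-fold higher in heart. Several core enzymes differed little. ENO1 stood at 15.01 ± 0.06 in ovary and 15.09 ± 0.03 in heart (adjusted p = 0.458), and LDHA at 11.45 ± 0.56 and 10.51 ± 0.17, under a fold-change of 2.

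Cytosolic ribosomal genes differed little. None of 56 cytosolic ribosomal protein genes was called by limma in either direction, and their median difference of 0.21 was close to the 0.16 of all probe sets. RPS3A, a protein of the small subunit, had values of 15.52 to 15.60 in ovary and 15.27 to 15.39 in heart. RPL26L1 stood at 15.50 ± 0.02 and 15.09 ± 0.03. At an unadjusted p under 0.05 alone, 26 of the 56 were higher in ovary and 0 in heart. Of 47 mitochondrial ribosomal protein genes, 10 (21.3%, against 14.8% of all genes) were higher in heart, 0 in ovary and 37 were not called, with a median of -0.52. MRPL2 was 3.49-fold, MRPL12 3.00-fold, MRPL37 2.84-fold and MRPL15 2.71-fold higher in heart.

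**Figure D3:**
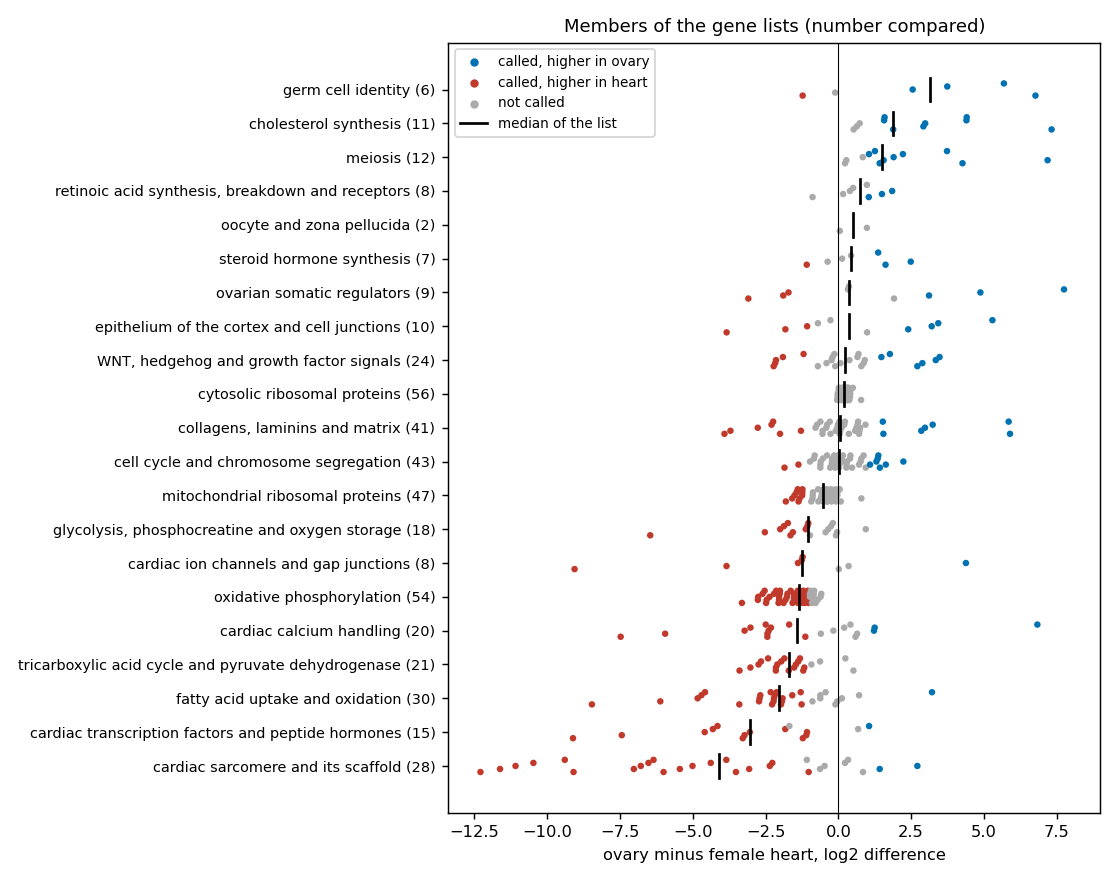
Ovary minus female heart on the log2 scale (x axis) for each compared member of the gene lists (rows, number compared in parentheses), coloured by the call, with a black bar at the median of each list. The sarcomere list has its median at -4.12 and the germ cell list at 3.15, and the cytosolic ribosomal proteins are gathered around 0.21.

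Steroid synthesis set the ovary apart from heart, chiefly through genes that were blank in heart. Of 15 genes of the pathway in the table, 7 had gonad values and none in heart, all 7 with an ovary mean of at least 4.0. Over all probe sets, 3201 of 19874 had gonad values and none in heart. STAR, which brings cholesterol into mitochondria, had values of 12.54, 13.30 and 12.55 in the 3 ovaries. CYP11A1, the enzyme that cuts its side chain, had values of 12.26, 12.51 and 12.29. HSD3B1 (11.02 ± 0.54) and CYP17A1 (14.87 ± 0.27) carry the product on to androgens. FDX1B, a ferredoxin-like gene outside the list, was at 13.76 ± 0.39. All 4 enzymes and carriers from STAR to CYP17A1 were blank in heart and in brain. They were not particular to the ovary. Testis means were 10.64 for STAR, 12.37 for CYP11A1, 11.91 for HSD3B1, 14.48 for CYP17A1 and 13.61 for FDX1B.

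Genes of the oestrogen step were high in ovary and low in testis. CYP19A1, aromatase, had values of 14.56, 14.54 and 14.45 in the ovaries, 4.54 in female brain and 2.38 in testis. HSD17B1, which makes the potent oestrogen oestradiol, had 11.67, 11.63 and 11.13 in the ovaries and 1.83 in testis. GREB1, a gene known to respond to oestrogen, stood at 11.32 ± 0.21 in ovary and 2.41 in testis. All 3 were blank in heart.

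Among the 7 steroid genes with values in both tissues, 3 (42.9%) were higher in ovary and 1 (14.3%) in heart. The shares over all genes were 19.7% and 14.8%. SRD5A3, a reductase, was 5.60-fold higher in ovary, POR, which feeds electrons to cytochromes P450, 3.07-fold, and CYB5A, a helper of CYP17A1, 2.58-fold. FDX1, the adrenodoxin that also serves other mitochondrial enzymes, was 2.12-fold higher in heart (9.35 ± 0.12 and 10.44 ± 0.09). In the ovaries, 9 of 14 steroid genes with a mean of at least 4.0 were highest in embryo 12, against 31.2% of all probe sets at that level.

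Receptors for the pituitary hormones were also high in ovary. LHCGR, the luteinizing hormone receptor, had values of 12.18, 12.35 and 11.77 in the ovaries and 3.45, 5.79, 3.84 and 4.31 in the hearts. It had the widest difference in favour of ovary among the named genes, 7.75 on the log2 scale with an SE of 0.44 (adjusted p = 7.52e-11). The heart of embryo 10 was its highest and all ovaries lay above it by several log2 units. FSHR, the receptor of follicle-stimulating hormone, stood at 9.62 ± 0.22 in ovary and was blank in heart.

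Cholesterol synthesis, which supplies this pathway, was higher in ovary. Of 11 genes compared, 8 (72.7%) were higher in ovary and 0 in heart, against 19.7% of all genes, with a median difference of 1.88. SQLE, squalene epoxidase, had values of 11.46, 11.09 and 11.32 in the ovaries and 4.02, 3.80, 4.26 and 3.81 in the hearts. The heart mean was 3.97, below the filter level, so the gap of 7.32 is between a level above the filter and one below it. FDFT1, which makes squalene, stood at 11.55 ± 0.28 and 7.14 ± 0.47 (21.2-fold), and MSMO1, a sterol oxidase, at 12.79 ± 0.03 and 8.39 ± 0.27 (21.1-fold). HSD17B7 was 7.90-fold and ACAT2 2.92 log2 units higher in ovary. A further 5 genes of the pathway, DHCR7 (11.59 ± 0.04), NSDHL, LSS, MVD and PMVK, had ovary values and were blank in heart. Female brain, another tissue that makes its own cholesterol, had 11.74 for SQLE, 10.98 for FDFT1 and 12.49 for HMGCS1. Over the 9 genes with a brain value, the median level was 9.37 in ovary, 7.14 in heart and 10.57 in female brain. Testis means were 10.90 for SQLE, 11.15 for FDFT1 and 12.12 for MSMO1. High levels of these genes were thus not particular to the ovary.

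Germ cell genes were present in all 3 ovaries. Of 17 genes of germ cell identity in the table, 10 had gonad values and none in heart, against 3201 of 19874 probe sets. Of the 10, 9 had an ovary mean of at least 4.0. Among the 6 compared, 4 (66.7%) were higher in ovary and 1 (16.7%) in heart, against 19.7% and 14.8% of all genes. DDX4, the vasa helicase that marks germ cells, had values of 9.52, 9.21 and 10.71, and DAZL, an RNA-binding protein, 9.73, 9.51 and 10.62. PIWIL1, which binds the small RNAs that guard the germ line against transposons, had values of 11.23, 11.36 and 12.07 in the ovaries and 4.59 to 4.99 in the hearts (109-fold, adjusted p = 1.09e-10). Its partners in that pathway, GTSF1 (51.4-fold), TDRD9 (13.4-fold) and TDRD7 (5.86-fold), were higher in ovary too. GTSF1 was also high in female brain, at 10.93 against 12.40 in ovary. Female brain had 6.96 for TDRD7 and 4.36 for PIWIL1. For GTSF1 the hearts were spread from 4.72 in embryo 20 to 8.0 in embryo 12, and the difference of 5.68 came to 5.02 without the heart of embryo 20. KIT, a receptor that germ cells share with several other cell types, was 2.34-fold higher in heart.

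Meiosis genes were higher in ovary or blank in heart. Of 12 genes compared, 9 (75.0%, against 19.7% of all genes) were higher in ovary and 0 in heart (median 1.49). A further 17 of the 29 in the table had ovary means of at least 4.0 and no heart value. Over all probe sets it was 2697 of 19874. SYCP3, which forms the axes of meiotic chromosomes, had values of 11.79, 11.17 and 12.22 in the ovaries and 4.07, 4.32, 5.49 and 4.28 in the hearts (146-fold, adjusted p = 1.16e-09). TERB1, which ties telomeres to the nuclear envelope, was 19.2-fold higher in ovary, SYCE3, a part of the synaptonemal complex, 13.3-fold, and TEX11 4.65-fold. HORMAD1, another axis protein, had values of 11.02, 10.95 and 12.14, and TEX12 had 11.21, 10.31 and 11.34. STRA8, the gate to meiosis that retinoic acid opens (8.07 ± 0.60), SPO11, which cuts the DNA (8.70 ± 0.32), SYCP1 (8.54 ± 0.30) and DMC1, which repairs the cuts (7.38 ± 0.38), were on in the ovaries. Testis means of these last 4 genes lay between 2.10 and 2.63. The other named members had higher testis means, at 8.76 for SYCP3, 8.66 for HORMAD1 and 6.69 for TEX12. Those of TERB1, TEX11 and SYCE3 were 6.29, 5.53 and 4.29.

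The 3 ovaries were not alike in these genes. Of 44 germ cell and meiosis genes with an ovary mean of at least 4.0, 33 (75.0%) were highest in the ovary of embryo 20 and 32 (72.7%) lowest in that of embryo 12. Over all 15846 probe sets at that level, 34.5% were highest in embryo 20 and 37.6% lowest in embryo 12. SYCP3 and PIWIL1 nevertheless stood far above heart in every ovary. This pattern was noticed after the values were seen, and its source was not tested.

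Retinoic acid, the signal that starts meiosis, had 8 genes compared. Of these, 3 (37.5%, against 19.7% of all genes) were higher in ovary and 0 in heart. ALDH1A2, the main enzyme of retinoic acid synthesis in embryos, had values of 11.81, 11.17 and 11.65 in the ovaries and 10.53, 9.84, 9.94 and 9.88 in the hearts (2.82-fold, adjusted p = 0.000462). DHRS3, which turns retinal back to retinol, was 3.60-fold higher in ovary. RDH10, which makes retinal, was 2.06-fold higher in ovary, and no longer passed the fold-change when arrays were centred (0.90) or without the ovary of embryo 2 (0.97). With arrays centred, 2 of the 8 genes were higher in ovary and 1 in heart. The breakdown enzymes CYP26A1 (4.5) and CYP26B1 (3.1) were close to or below the filter level in ovary and blank in heart.

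Oocyte genes were few. Of 6 genes of oocytes and the zona pellucida in the table, 2 had values in both tissues and neither passed the test. NOTCH2, a receptor on pregranulosa cells, fell just short at 1.97-fold (9.84 ± 0.13 and 8.86 ± 0.28), and it passed under the fit with the embryo as a fixed block (1.06) or without the heart of embryo 10 (1.06), the heart of embryo 20 (1.04) or either ovary of embryos 2 and 12. KITLG, the ligand of KIT, overlapped between tissues (7.97 ± 0.60 and 7.92 ± 0.71, adjusted p = 0.923). In both tissues it was higher in embryo 2 than in embryo 20. ZP1, LHX8 and ZAR1L had gonad values and were blank in heart.

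Of 23 ovarian and gonadal regulators in the table, 13 had gonad values and none in heart, against 3201 of 19874 probe sets. Of the 13, 10 had an ovary mean of at least 4.0 and the rest were carried by testis. FOXL2, the factor that maintains ovarian identity, had values of 7.23, 7.36 and 6.34 in the ovaries and a testis mean of 2.58. NR5A1, which switches on steroid genes, had 9.63, 9.51 and 9.91. LHX9 (10.55 ± 0.32), EMX2 (8.29 ± 0.28) and PGR, the progesterone receptor (9.81 ± 0.12), were present as well, and ESR1, an oestrogen receptor, stood at 6.10 ± 0.40. DMRT1, the Z-linked factor known for its role in testis formation, was high in every ovary (13.46, 13.33 and 13.55), with a testis mean of 13.83. SOX9, a factor of Sertoli cells, was at 3.00 ± 0.04 in ovary and 8.39 in testis.

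Of the 9 regulators with values in both tissues, 3 (33.3%) were higher in ovary and 3 (33.3%) in heart. The shares over all genes were 19.7% and 14.8%. NR0B1, a repressor that works with NR5A1, was 29.4-fold higher in ovary and BMP2 8.65-fold. INHBA, an activin subunit, stood at 4.08 ± 0.35 in ovary and 7.17 ± 0.09 in heart, BMP7 at 7.81 ± 0.48 and 9.52 ± 0.23, and NR5A2 at 3.70 ± 0.57 and 5.59 ± 0.71. GATA4, shared by gonad and heart, had ovary values of 6.64, 7.72 and 7.59 and heart values split into 6.72 and 6.93 in embryos 2 and 12 and 4.14 and 3.83 in embryos 10 and 20, and it did not pass the test (adjusted p = 0.0524).

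Among genes of epithelium and cell junctions, 4 of 10 compared were higher in ovary and 3 in heart. EPCAM, an adhesion molecule of epithelium, had values of 8.94, 9.04 and 8.92 in the ovaries and 3.97, 3.23, 3.45 and 4.06 in the hearts. It was not particular to the ovary, with means of 8.91 in female brain and 7.94 in testis. CLDN1 of tight junctions was 10.8-fold, LRRN4, known from mesothelium, 9.22-fold and KRT14 5.28-fold higher in ovary. PKP2, the plakophilin of the intercalated disc, was 14.3-fold and CDH2, N-cadherin, 3.53-fold higher in heart. CLDN5 of endothelium was 2.10-fold higher in heart, and came under a fold-change of 2 without the ovary of embryo 20 (-0.90) or without the hearts of embryos 2 (-0.99) or 12 (-0.91).

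Signalling genes were called in both directions. Of 24 genes of the WNT, hedgehog and growth factor list, 6 (25.0%) were higher in ovary and 5 (20.8%) in heart. These shares were near the 19.7% and 14.8% of all genes. SFRP1, a secreted WNT antagonist, was 11.1-fold, AXIN2, a known target of the WNT pathway, 10.2-fold, PDGFRA, a receptor of stromal cells, 7.39-fold and the ligand WNT5A 6.56-fold higher in ovary. On the side of heart were PDGFC (4.66-fold), DKK3 (4.5-fold), the receptor FZD8 (4.41-fold) and FRZB (3.74-fold). AXIN2 had values of 9.77 to 10.04 in ovary and 6.18 to 6.94 in heart, with no overlap.

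In the extracellular matrix, 7 of 41 genes (17.1%) were higher in ovary and 7 (17.1%) in heart, with a median of 0.05. These shares were likewise near the 19.7% and 14.8% of all genes. FBLN5, a protein of elastic fibres, had values of 9.49, 9.91 and 10.67 in the ovaries and 4.14, 5.13, 4.04 and 3.21 in the hearts (59.5-fold, adjusted p = 1.58e-07). COL12A1, a collagen of dense connective tissue, stood at 11.58 ± 0.16 in ovary, and its hearts were spread over 3.88, 8.76, 4.59 and 5.73. Its difference of 5.85 became 6.85 without the heart of embryo 10 and 5.23 without that of embryo 2. OGN, a small proteoglycan (9.44-fold), and HAPLN1, which links hyaluronan to proteoglycans (7.86-fold), were higher in ovary. COL21A1 (15-fold), VCAN, a large proteoglycan (13-fold), and LAMA2, the laminin chain of muscle basement membrane (4.91-fold), were higher in heart. The difference of VCAN was -3.71, and -4.31 without the ovary of embryo 2. LOX, which crosslinks collagen, had heart values of 7.01, 6.97, 6.66 and 3.70 and ovary values under 4.0. Its fitted difference was -2.77, and -3.56 without the low heart of embryo 20, and the ovary level leaves its true size unmeasured. The collagens of ordinary connective tissue were alike, with COL1A1 at -0.39 and COL3A1 at 0.62, neither past the fold-change.

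Genes of the cell cycle differed little as a group. Of 43 compared, 7 (16.3%) were higher in ovary, 2 (4.65%) in heart and 34 passed in neither direction, with a median of 0.04. The shares over all genes were 19.7% and 14.8%. TYMS, which makes thymidylate, was 4.70-fold, CCNE2 3.09-fold, CCNE1 2.68-fold and CDC20 2.59-fold higher in ovary. MCM6, part of the replicative helicase, was 3.60-fold and CENPF 2.59-fold higher in heart. TOP2A (9.36 ± 0.07 and 9.50 ± 0.08) overlapped between tissues, and MKI67, the common marker of dividing cells, was 0.61 lower in ovary on the log2 scale (10.07 ± 0.23 against 10.67 ± 0.06).

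Several of the widest differences in favour of ovary lay outside these pathways. EMB, embigin, a membrane partner of lactate transporters, had values of 14.46, 14.44 and 14.36 in the ovaries and 6.6, 7.41, 6.57 and 6.33 in the hearts (207-fold, adjusted p = 3.46e-13). FGFR3, a receptor of fibroblast growth factors, had 11.61, 11.12 and 11.31 in the ovaries and 5.06, 5.09, 3.37 and 3.30 in the hearts. PTPRZ1, a receptor phosphatase best known from brain, had 10.32, 10.08 and 10.31 in the ovaries, 3.18 to 6.0 in the hearts and 12.65 in female brain. Its testis mean was 3.15. TUBA3E, an α-tubulin (104-fold), and UGT8, which makes galactosylceramide (52.2-fold), were likewise apart from heart in every array. TPTE was too, at a mean of 10.21 in ovary and 3.97 in heart, the latter under 4.0. KRT24, a keratin, was 88.9-fold higher in ovary, with hearts at 2.99, 7.97, 4.86 and 4.41. The difference of KRT24 was 6.47, and 7.44 without the heart of embryo 10 and 5.78 without that of embryo 2.

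On the side of heart, the remaining wide differences were EPB41L4B, SMPX, RD3L and KLHL41. SMPX, a small protein of striated muscle, stood at 4.31 ± 0.44 in ovary and 12.81 ± 0.13 in heart. KLHL41, a kelch protein of striated muscle, had ovaries at 4.01, 3.19 and 5.14 and hearts at 11.68 to 11.95. RD3L stood at 4.15 ± 0.71 and 12.46 ± 0.18. EPB41L4B, a membrane-skeleton protein, stood at 2.52 ± 0.10 and 11.13 ± 0.13, and at 9.43 in female brain. A second probe set for EPB41L4B gave a difference of -0.93, in the same direction and under the fold-change.

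Markers of other cell types moved as well. Of 14 endothelial genes, 9 were higher in heart and 0 in ovary, among them VWF, CDH5 and PECAM1, and their summed level was 12.88 to 13.18 in the ovaries and 14.16 to 14.29 in the hearts on the log2 scale. Of 5 red cell genes, 4 were higher in heart. HBA1, an α-globin, had 14.51, 14.46 and 13.30 in the ovaries and 14.85 to 15.11 in the hearts, without overlap, and it was the member that did not pass the fold-change. All 5 were lowest, among the ovaries, in that of embryo 20. Of 6 white cell genes, 5 were higher in ovary, with summed levels of 12.61 to 13.26 against 11.54 to 12.02. Without the ovary of embryo 12 that count was 3. Of 5 smooth muscle genes, 2 (40.0%, against 14.8% of all genes) were higher in heart. These were DES and MYH11, both of which are also on the sarcomere list. The share of each difference above that goes with such cells was not tested.

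Genes of chromaffin cells and nerve separated the ovaries from each other. TH, the enzyme that starts catecholamine synthesis, had 6.09, 8.76 and 2.40 in the ovaries and was blank in heart. STMN2, a neuronal gene, had 10.28, 8.70 and 3.02. CHGA, a protein of secretory granules, had 6.83, 10.27 and 5.23 in the ovaries and 3.58 to 5.07 in the hearts. Of 18 such genes with an ovary mean of at least 4.0, 14 were lowest in the ovary of embryo 20, against 33.6% of all probe sets. Of the 6 compared with heart, 3 were higher in ovary and 2 in heart. Of 4 Schwann cell and glia genes, FABP7 and MBP were higher in ovary, with summed levels of 10.44 to 11.15 in the ovaries and 10.24 to 10.48 in the hearts. Of 6 adrenal cortex and kidney genes in the table, 4 had ovary means of at least 4.0 and no heart value. Over all probe sets it was 2697 of 19874. The 1 gene compared was PODXL, which podocytes share with germ cells and vessels and which was 1.43 log2 units higher in ovary. The 3 ovaries thus differed in these genes, whose part in other results was not tested.

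**Figure D4:**
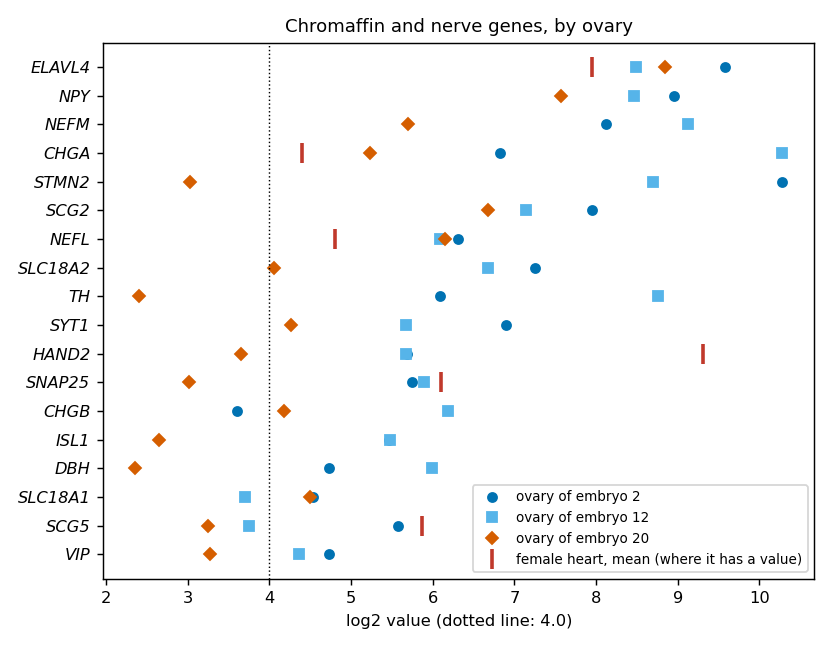
Log2 values (x axis) of chromaffin and nerve genes (rows) in each of the 3 ovaries, with the female heart mean as a red bar where heart has a value and a dotted line at 4.0. The ovary of embryo 20 is the lowest in 14 of 18 genes, with TH at 2.40 and STMN2 at 3.02.

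Of 15 genes of early response and stress, 5 (33.3%) were higher in ovary and 2 (13.3%) in heart. Over all genes the shares were 19.7% and 14.8%, so the heart share was near that of all genes. The chaperones DNAJA1 (1.97 on the log2 scale) and HSPA5 (1.44) were higher in ovary, and DUSP1 (-2.27) and KLF2 (-1.48) were higher in heart. EGR1 and JUN, which respond within minutes, did not pass the test (-0.71 and -0.32). Of 12 housekeeping genes, 3 (25.0%) were higher in ovary and 3 (25.0%) in heart, against 19.7% and 14.8% of all genes. B2M, of the class I antigen complex, stood at 14.15 ± 0.16 in ovary and 11.66 ± 0.34 in heart, and TFRC, the transferrin receptor that red cell precursors also carry, at 7.01 ± 0.46 and 10.22 ± 0.09. GAPDH (-0.35) and PPIA (0.22) differed by less than the fold-change.

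Probe sets blank in 1 tissue need care. Counted by gene, 1177 genes had values in gonads and not in heart in all their probe sets, and 564 in heart and not in gonads. Of the 3201 probe sets without heart values, 2697 had an ovary mean of at least 4.0, and the other 504 were carried by testis. Besides the steroid genes they included GRP, gastrin-releasing peptide (12.61 ± 0.66 in ovary), and SALL1, a zinc-finger factor (11.88 ± 0.18). A blank in gonads was less telling. Among probe sets at 10 or more in both female brain and heart, 113 of 1679 (6.73%) were blank in gonads, whereas among those at 10 or more in both brain and ovary 6 of 1679 (0.357%) were blank in heart. The 113 included genes that all cells use. RPL12, a ribosomal protein, stood at 14.16 ± 0.06 in heart and 13.61 in brain, and NDUFB5 of complex I at 14.03 ± 0.11 and 13.03, and both were blank in gonads. A blank in gonads therefore does not show that a gene was low in ovary. Among the other high genes with heart values alone were CSRP3, a muscle LIM protein (14.67 ± 0.11), and the myosin light chain MYL10 (15.03 ± 0.10), both of which were blank in brain too.

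The male embryos allowed the same contrast. The difference of ovary from female heart was set against the difference of testis from male heart in 1 model. It passed the test in 1350 probe sets (10.2%), with 788 (5.93%) more ovary-sided in females and 562 (4.23%) more heart-sided in females. Of the 116 named genes compared, 42 passed. Most of these were named for the size of the ovary-heart difference in the same female arrays. Their share is therefore not comparable with the 10.2% of all probe sets. Among those that did not were ACTN2 (-9.09 in females, -9.53 in males), SQLE (7.32 and 6.65), NR0B1 (4.88 and 4.91) and IDH3B (-3.02 and -3.02, adjusted p = 0.989).

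Other genes were apart. FBLN5 was 5.89 higher in ovary than in heart and 2.28 lower in testis than in male heart, an interaction of 8.17 (adjusted p = 5.19e-06). PTPRZ1 did likewise, at 5.77 and -2.65, an interaction of 8.42 (adjusted p = 4.66e-07), and SLN at 6.83 and -0.46, an interaction of 7.29 (adjusted p = 0.000121). NR5A2 went the opposite way, at -1.89 in females and 4.67 in males, an interaction of -6.57 (adjusted p = 1.53e-05). The testis means of FBLN5 (2.93) and PTPRZ1 (3.15) and the ovary mean of NR5A2 (3.70) lay under 4.0, so the sizes of these 3 interactions, and of the testis differences of FBLN5 and PTPRZ1, are fitted values and not measured ones. Of the 12 meiosis genes compared, 4 passed, against 10.2% of all probe sets, with interactions of 2.59 for SYCP3, 3.10 for TERB1, 4.08 for SYCE3 and 1.91 for TEX11. SYCE3 had a testis mean of 4.29, at the level of the hearts. None of the 54 oxidative phosphorylation genes and none of the 56 cytosolic ribosomal protein genes passed this limma test of the sexes, while 11 and 1 of them had an unadjusted p under 0.05. In the sarcomere list 10 of 28 passed the test and 17 had an unadjusted p under 0.05. Among the 10 were MYL3 (-3.48) and MYL2 (-2.13), whose testis means were 6.97 and 7.13 against ovary means of 3.56 and 5.07. The ovary mean of MYL3 lay under 4.0, so the size of its interaction is a fitted value too.

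**Figure D5:**
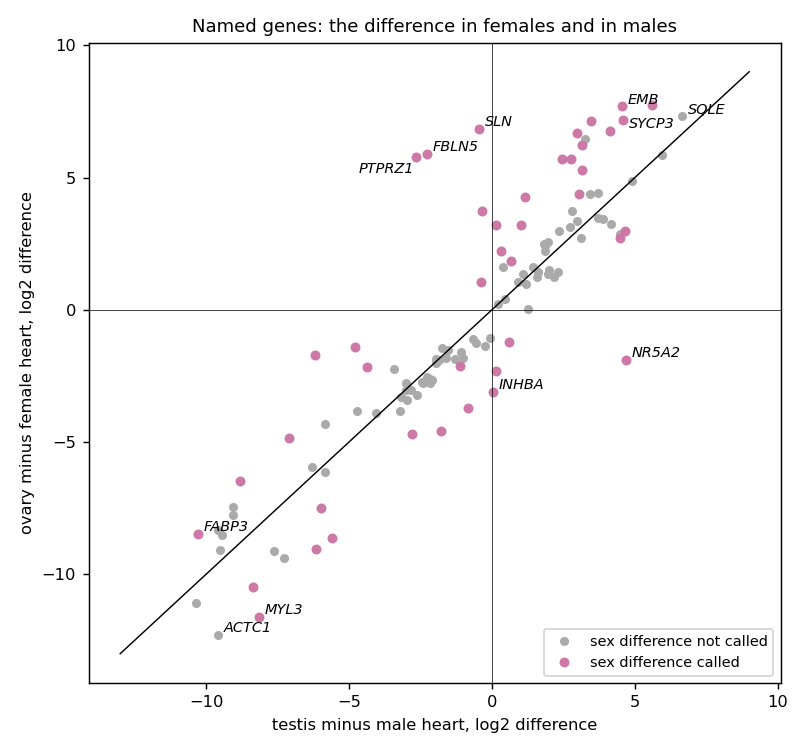
Ovary minus female heart (y axis) against testis minus male heart (x axis), both on the log2 scale, for the named genes with values in both tissues. The line marks equal differences and purple points passed the test of the difference between sexes. SLN, PTPRZ1 and FBLN5 are positive in females and below 0 in males, and NR5A2 (-1.89 in females, 4.67 in males) lies on the other side.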

How the data were processed

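Total RNA of single embryos was hybridised to Affymetrix arrays. The authors processed the scans with GCRMA (background adjustment by probe GC content, quantile normalization, median polish) in R 2.4.1 and deposited log2 values, tissue by tissue, after a filter on mean level and on MAS5 detection calls. Probe sets without values in a tissue were blank, and not every blank need come from that filter. Per the labels of the heart and gonad samples a human array was used, but the probe set names are those of the chicken array. The number of arrays limits the precision.

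A linear model over all 21 arrays, with sex and tissue as 1 factor of 6 groups, was fitted with limma 3.58.1 in R 4.3.3, and tables were made with pandas 2.3.3 and numpy 2.4.6 in Python 3.11.15. Benjamini-Hochberg adjustment ran over all 13298 compared probe sets. Calls required an adjusted p below 0.05 together with a fold-change above 2. Simulated data with 200 changed probe sets of 13298 tested this comparison. With 1 spread for both tissues, 86% of 4-fold and 40% of 2-fold changes were called, and 3.45% of calls were false. That share was 12.6% when each tissue had its own spread. The simulation changed far fewer probe sets than the 34% called in the data. Its shares are therefore not error rates of the calls reported here.

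Probe sets were named through GEO's platform annotation and a RefSeq gene table (assembly GRCg7b, names only): 16063 matched by gene ID, 132 by symbol, 85 held several genes and 3592 had none. Of 2710 genes with several compared probe sets, 12 had probe sets called in opposite directions. Named were the 15 widest called differences per direction without overlap, up to 4 called members per direction of each of 21 gene lists (or the 2 with the highest mean), the 10 genes with the highest mean among those blank in a tissue, and 11 anchor genes, with other list members named beside their list's count. The 9 marker lists were described by counts. Lists and members were chosen with earlier results of these data known.

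The labels give each array a number without calling it an embryo, and per the methods the tissues came from the same embryos. Arrays with the same number were therefore read as the same embryo. Deviations of ovary and heart from their group means correlated at 0.214, 0.323 and 0.292 in embryos 2, 12 and 20, in each case above all other pairings, so the numbers pair the samples. The model had no block, and fits with the embryo as a block were alternatives, as were array weights, centring, repeated quantile normalization, other thresholds, a filter on low means, other probe sets and leaving out each array. Promoter sequences were not analysed here.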

Additional observations from a re-analysis of the deposited data

Results flagged for a closer look

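The difference between ovary and female heart differed from that between testis and male heart, by the interaction in the limma model (fold-change over 2, adjusted p under 0.05), in 42 of the 116 named genes with values in both tissues. Over all compared probe sets the share was 10.2%. Most named genes were chosen by the size of the ovary-heart difference in the same female arrays, which favours a wider gap in females. Values are female minus male differences on the log2 scale. Genes high in ovary with a wider gap in females were PTPRZ1 (8.42), FBLN5 (8.17), SLN (7.29), SYCE3 (4.08), TUBA3E (3.71), FGFR3 (3.66), UGT8 (3.25), EMB (3.15), TERB1 (3.10), TPTE (3.08), FABP7 (3.06), GTSF1 (2.92), PIWIL1 (2.64), SYCP3 (2.59), LRRN4 (2.20), LHCGR (2.16), EPCAM (2.13), TEX11 (1.91), FOXP1 (1.44), GJA1 (1.32) and DHRS3 (1.19). Genes high in ovary with a wider gap in males were WNT5A (-1.77) and HAPLN1 (-1.67). Genes high in female heart with a more negative difference in females were NR5A2 (-6.57), MYL3 (-3.48), INHBA (-3.13), EPB41L4B (-3.02), POPDC3 (-2.91), VCAN (-2.87), MYOCD (-2.80), LAMA2 (-2.42), MYL2 (-2.13), PPARGC1A (-1.91), KIT (-1.84), RYR2 (-1.50) and FZD8 (-1.02). Genes high in female heart with a less negative difference in females were BMP7 (4.48), KCNQ1 (3.41), PFKM (2.34), PDK4 (2.28), DKK3 (2.18) and FABP3 (1.82). MYL3, EPB41L4B, POPDC3, RYR2 and NR5A2 had ovary means under 4.0, EPCAM and TPTE female heart means under 4.0, and FBLN5, PTPRZ1 and BMP7 testis means under 4.0, so the sizes of these 10 are fitted values and not measured ones.

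A heart stood apart from the other 3 in 5 of the 116 named genes with values in both tissues. The heart of embryo 10 was high for CENPF (8.61) and RDH10 (9.95), the heart of embryo 2 was high for ALDH1A2 (10.53) and FZD8 (7.90), and the heart of embryo 20 was low for LOX (3.70). For RDH10 the gap to the next heart was small (9.85). Chance alone sets an array apart in about 1 in 20 groups where genes are independent and unselected. The 116 genes share the same hearts, and most were chosen by differences in these arrays. That rate therefore cannot be set against 5 of 116, and the cause was not tested.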

How the results depend on the processing

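The count of probe sets called, 4516 (2562 higher in ovary, 1954 in heart), followed the threshold and the unit counted. At a fold-change over 1.5 it was 6918 (4062 higher in ovary), at a fold-change over 4 it was 1526 (762 and 764), and with 1 probe set per gene it was 2534 (1449 and 1085). Leaving out 1 array at a time gave 4427 to 4594 calls. With the embryo as a random replicate block the counts were 2566 and 1970, and as a fixed block over the 7 arrays 2636 and 1985, and among named genes the block changed the call of NOTCH2 and no other. Centring gave 2151 and 2277, and quantile normalization repeated over 11710 probe sets gave 1960 and 1950. Interaction calls, 1350 as reported, ran from 1175 to 1368 without 1 of the 7 ovary and female heart arrays (testis and male heart arrays were not left out) and were 1485 with the random block. KITLG, which was not called (0.05), changed sign with the fixed replicate block (-0.068), with centring (-0.095), without the ovary of embryo 2 (-0.29) and without the hearts of embryos 10 (-0.068) or 20 (-0.23), and ran up to 0.26 without the ovary of embryo 20. The cause was not tested. Of 112 named genes called, 4 lost the call in an alternative of the same probe set (RDH10, CLDN5, BVES and FOXP1), and of 29 with a second compared probe set 27 were called there in the same direction. Not every alternative held every named gene. Repeated quantile normalization gave the same result for 89 and a weaker one for 1, and left out genes blank in brain, such as SYCP3 and SLN. The filter on low means held 114.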
